A study of Homo sapiens with 4 samples.

Results

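The genes described here are 49 components of the autophagy machinery and of the proteins that control mTORC1, chosen by symbol from the 21865 gene symbols of the deposited tables, in which all 49 were found. Autophagy is the process by which a cell encloses its own cytoplasm in a double membrane and delivers it to the lysosome, and mTORC1 is the kinase complex that holds the process back while nutrients are plentiful. The ULK kinase complex starts it, a phosphatidylinositol 3-kinase complex marks the growing membrane, and 2 ubiquitin-like conjugation reactions attach proteins of the ATG8 family to the membrane lipid. Cargo receptors then bring in what is to be degraded. The transcription factors TFEB and TFE3 switch on lysosomal and autophagy genes when mTORC1 is inactive. In leukemia cells the pathway is known as a means of surviving nutrient shortage and drug treatment.

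The data come from RNA-seq of 4 human lines of acute myeloid leukemia, with 1 library per line and no treatment named. THP-1 and MonoMac-1 are of monocytic origin and bear the MLL-AF9 fusion, HL60 is a promyelocytic line and KG1a is an immature, CD34-positive line. The fusion is named in the title of the series, but its presence in THP-1 and MonoMac-1 and absence from HL60 and KG1a is general knowledge of the lines. All 4 were grown in RPMI/Opti-Media medium with inactivated fetal bovine serum and antibiotics. The THP-1 title carries the suffix "tr", which no label explains. Each line stands for 1 leukemia, so the fusion, the monocytic lineage and the history of a single line cannot be told apart.

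The libraries held between 6.04 (THP-1) and 13.6 (MonoMac-1) gigabases on genes. Levels are RPKM, reads scaled to gene length and library size, as the authors deposited them. A gene is called measured if it reached 1 RPKM in at least 1 line, which held for 12976 genes and for 48 of the 49. The lineages known of these lines, which the sample labels do not state, were visible in part of their markers. IRF8 stood at 231 RPKM for THP-1 and 163 for MonoMac-1, against 0.599 for HL60 and 0.0216 for KG1a. MPO reached 4610.2 RPKM in HL60 and CD34 494 in KG1a. Against their use as promyelocyte markers, ELANE and AZU1 were higher in THP-1 and MonoMac-1 than in HL60, and the monocyte marker CD14 was low everywhere, at 4.13 RPKM or less. Of the 9 markers of lymphoid, erythroid and non-blood cells, those above 1 RPKM were HBB in THP-1 (15.2) and HL60 (5.27), KRT8 in MonoMac-1 (1.54), CD79A in HL60 (6.36) and CD3E in KG1a (14.1). Genes abundant in KG1a and near 0 in the MLL-AF9 lines lay in HL60 at a median of 2.70% of their KG1a level (63 genes, quartiles 2.53% and 3.25%), so HL60 values near that share of KG1a are pointed out.

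Nearly every gene of the pathway was expressed in every line. Of the 49 genes, 1 RPKM was reached by 48 in THP-1, by 47 in MonoMac-1 and by 45 each in HL60 and KG1a. In bulk RNA, fewer expressing cells and less RNA per cell cannot be told apart. The exceptions were ULK2, which stayed below 1 RPKM in all 4 lines, OPTN in MonoMac-1 and HL60, MAP1LC3A in HL60 and KG1a, ATG10 in HL60, and TFEB and RRAGD in KG1a. The highest level of a measured member divided by its lowest had a median of 2.32 over the 48 genes, against 2.77 over all measured genes. That span was under 2-fold for 17 of the 48 (35.4%), against 30.8% of all measured genes. Among genes with a mean of at least 5 RPKM the medians were 2.22 for 41 members and 2.26 for all 8478 genes. The narrowest spans were those of WIPI2 (1.12-fold), MTOR (1.14-fold) and PIK3R4 (1.23-fold), and the widest of measured genes were those of MAP1LC3A, OPTN (101-fold) and TFEB (28.3-fold).

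**Figure D1:**
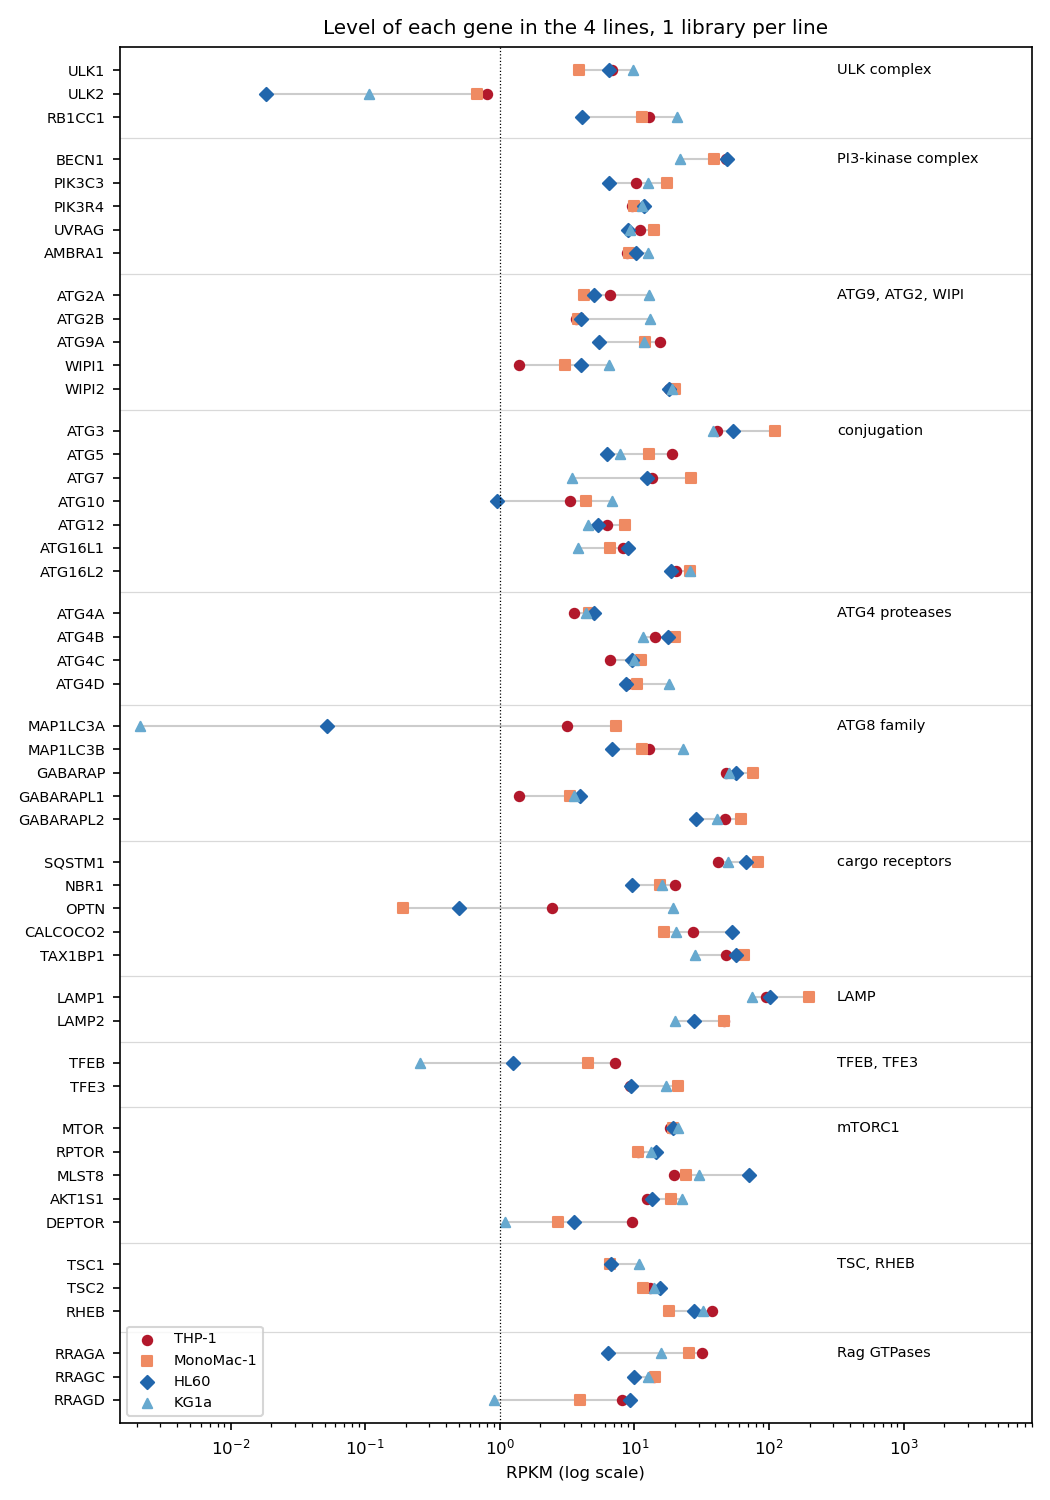
RPKM (log scale) of each of the 49 genes in THP-1, MonoMac-1, HL60 and KG1a, grouped by role, with 1 point per library and a dotted line at 1 RPKM. The points of most genes lie close together between 1 and 100 RPKM, while MAP1LC3A, ULK2, OPTN and TFEB are spread widely.

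Set side by side as pairs, THP-1 and MonoMac-1 stood apart from HL60 and KG1a in about as large a share of the measured members as of all measured genes. ULK2, below 1 RPKM in every line and so not counted, was also more than 2-fold higher in THP-1 and MonoMac-1. By any margin, 11 of 48 members stood higher in each MLL-AF9 line than in HL60 and KG1a (22.1% of all measured genes did), and 9 were lower (19.6%). By at least 2-fold, the lower value of the MLL-AF9 lines set against the higher value of the others, 2 members were higher (7.38% of all measured genes), MAP1LC3A and TFEB. By the same margin 0 were lower (4.13%). At 4-fold MAP1LC3A alone was higher (4.35%) and 0 were lower (2.21%). These shares are near or below those of all genes. With a line left out, fewer lines must stand apart, so the 2-fold counts can only stay or rise. They were 4 higher and 1 lower without THP-1, 5 and 2 without MonoMac-1, 6 and 3 without HL60, and 7 and 1 without KG1a. The shares of all genes were not counted for these. The median difference of log2(RPKM + 1) between the pairs was 0.15 for the members and 0.02 for all measured genes. It became -0.02 without MonoMac-1 and 0.02 without HL60.

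With limma, in which the line is the unit and 2 residual degrees of freedom remain, 0 members and 0 of 12976 genes (0.0%) passed an adjusted p of 0.05. At an unadjusted p under 0.05 there were 5 members, MAP1LC3A, TFEB, RRAGA, LAMP2 and ATG5, where 8.55% of all measured genes passed. All 5 were higher in both MLL-AF9 lines. The number of members was 2 without the trend of limma's variance fit (8.47% of all genes tested). It was 3 with median-of-ratios scaling (8.53%) or a minimum of 5 RPKM (8.44%). Fits without a line leave 1 line in a group, so no such count is given for them. The lowest adjusted p of a member was that of MAP1LC3A, 0.350 by limma. An exact permutation test of 2 lines against 2 cannot give a two-sided p below 0.333, so no single gene could pass by that test.

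Expression of RET, the receptor kinase named in the title of the series, had the order THP-1, MonoMac-1, HL60, KG1a. RET (chromosome 10, 43572517 to 43625797, hg19) stood at 47.8 RPKM for THP-1 and 14.6 for MonoMac-1, against 2.74 for HL60 and 0.0175 for KG1a. With 4 lines no correlation was taken, and only the order was compared. TFEB and LAMP2 had the order of RET (2 of 48, and 5.96% of all measured genes), and WIPI1, ATG2B and AMBRA1 had the reverse (3 of 48, and 5.97%). As shares these are close to those of all genes. With neighbouring levels at least 1.2-fold apart, TFEB alone kept the order and WIPI1 alone its reverse. The shares of all genes were not counted by this stricter rule.

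TFEB, the transcription factor that drives lysosome and autophagy genes, was the member that followed RET with each step at least 1.2-fold. TFEB (chromosome 6, 41651716 to 41703997, hg19) was measured at 7.21 RPKM for THP-1 and 4.55 for MonoMac-1, against 1.26 for HL60 and 0.255 for KG1a. The 95% counting intervals of the 4 levels, taken at 200 sequenced bases per fragment, did not overlap: 6.66 to 7.80 for THP-1, 4.25 to 4.86 for MonoMac-1, 1.07 to 1.48 for HL60 and 0.181 to 0.350 for KG1a. The MonoMac-1 level was 3.60 times that of HL60, the nearest pair across the split. The difference between the pairs was 2.002 on the log2(RPKM + 1) scale (SE 0.55, limma adjusted p = 0.444), higher in both MLL-AF9 lines, and 3.07 with a pseudocount of 0.1. The span of TFEB was far smaller than that of RET, whose KG1a level was close to 0 and rested on 6.85 fragment equivalents.

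TFE3, the close relative of TFEB, was expressed in all 4 lines and in another order. TFE3 stood at 9.25 RPKM for THP-1 and 21.0 for MonoMac-1, against 9.50 for HL60 and 17.2 for KG1a. Its levels in THP-1 and HL60 had overlapping intervals. TFE3 exceeded TFEB in every line, by 1.28 times in THP-1 and 4.63 times in MonoMac-1, and by 7.53 times in HL60 and 67.4 times in KG1a. The sum of both factors was 16.5 RPKM for THP-1 and 25.6 for MonoMac-1, against 10.8 for HL60 and 17.4 for KG1a, so the summed level varied less than that of TFEB.

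**Figure D2:**
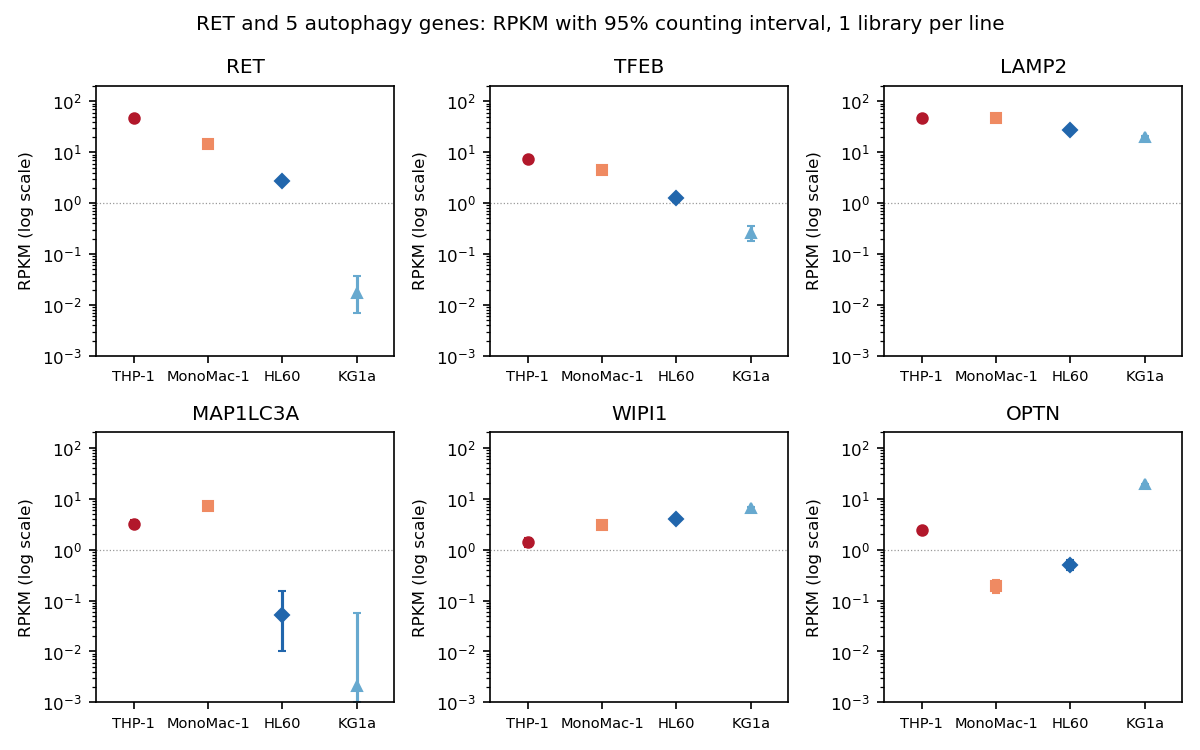
RPKM (log scale) of RET, TFEB, LAMP2, MAP1LC3A, WIPI1 and OPTN in each line, 1 library per line, with 95% counting intervals (the lower end of the MAP1LC3A interval in KG1a runs off the axis) and a dotted line at 1 RPKM. TFEB steps down from THP-1 to KG1a as RET does, LAMP2 is level between THP-1 and MonoMac-1, and WIPI1 steps up.

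LAMP1 and LAMP2, the main glycoproteins of the lysosomal membrane, were abundant throughout. LAMP1 reached 95.1 RPKM for THP-1 and 199.8 for MonoMac-1, against 101 for HL60 and 74.3 for KG1a, so that MonoMac-1 had 2.10 times the THP-1 level and THP-1 lay among the other lines. LAMP2, which also serves as a receptor in chaperone-mediated autophagy, was measured at 46.4 RPKM for THP-1 and 46.3 for MonoMac-1, against 27.7 for HL60 and 20.1 for KG1a. The counting intervals of THP-1 and MonoMac-1 overlapped, and the pairs of lines did not. The difference of LAMP2 was 0.94 on the log2(RPKM + 1) scale (SE 0.35, limma adjusted p = 0.566).

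TFEB and TFE3 are known to bind the E-box letters CACGTG within a longer element of lysosomal promoters. The promoters of members that hold these letters are shown so that the letters can be read beside the levels of the genes. RefSeq promoters of build GRCh38.p14, running from 250 bases before to 50 bases after a start site, were at hand for 39 of the 49 genes (79.6%). Since fewer than 80% matched, the share of members with the letters is not read as a property of the set. CACGTG, which reads the same on both strands, occurred in 4 of the 39, namely LAMP1, ATG3, TSC2 and RRAGC, and in 8.77% of all 27305 genes and 12.8% of the 8925 measured genes with a promoter. The longer TCACGTGA, which contains it, occurred in LAMP1, ATG3 and TSC2 and in 1.18% of all genes and 2.35% of measured genes. Matches are a description of the letters and not evidence of binding. In the sequences CACGTG is in capitals. They are LAMP1 (chr13:113296989-113297288, plus strand), ATG3 (chr3:112561913-112562212, minus strand), TSC2 (chr16:2047735-2048034, plus strand, the first of 2 promoters listed for the gene) and RRAGC (chr1:38859723-38860022, minus strand), each written in the direction of its gene.
LAMP1: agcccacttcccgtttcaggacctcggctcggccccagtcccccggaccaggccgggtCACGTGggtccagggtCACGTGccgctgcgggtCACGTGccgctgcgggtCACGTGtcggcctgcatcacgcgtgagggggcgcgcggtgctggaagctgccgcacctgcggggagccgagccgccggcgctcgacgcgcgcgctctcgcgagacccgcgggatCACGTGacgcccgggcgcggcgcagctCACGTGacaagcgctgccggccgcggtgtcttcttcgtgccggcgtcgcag
ATG3: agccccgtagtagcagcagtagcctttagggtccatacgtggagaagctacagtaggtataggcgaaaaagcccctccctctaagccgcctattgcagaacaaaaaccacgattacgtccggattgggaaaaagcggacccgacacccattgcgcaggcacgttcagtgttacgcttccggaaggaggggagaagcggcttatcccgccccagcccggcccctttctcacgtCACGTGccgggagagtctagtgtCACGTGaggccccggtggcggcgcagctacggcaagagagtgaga
TSC2: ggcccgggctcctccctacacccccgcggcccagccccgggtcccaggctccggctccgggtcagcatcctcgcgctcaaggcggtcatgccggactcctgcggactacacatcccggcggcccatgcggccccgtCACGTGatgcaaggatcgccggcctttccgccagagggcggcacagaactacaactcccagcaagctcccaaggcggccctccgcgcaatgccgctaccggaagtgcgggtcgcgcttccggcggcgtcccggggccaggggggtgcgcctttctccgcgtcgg
RRAGC: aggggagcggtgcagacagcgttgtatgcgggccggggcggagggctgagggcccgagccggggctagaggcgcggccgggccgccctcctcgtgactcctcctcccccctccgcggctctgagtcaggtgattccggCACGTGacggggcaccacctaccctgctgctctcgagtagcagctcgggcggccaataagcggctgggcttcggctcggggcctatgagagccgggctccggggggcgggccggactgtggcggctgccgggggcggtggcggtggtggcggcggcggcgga

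The LAMP1 promoter held CACGTG 6 times, beginning 192, 176, 159, 142, 28 and 1 bases before the start site, of which the last pair lay in TCACGTGA. It was the only gene of the 27305 with 5 or more copies in 1 promoter, while 0.791% had at least 2. ATG3 had it beginning 18 bases before and 5 bases after the start site, TSC2 114 bases before and RRAGC 112 bases before. The levels of these 4 genes had no common order. LAMP1 and ATG3 shared one, with MonoMac-1 highest, then HL60, THP-1 and KG1a, although the intervals of ATG3 in THP-1 and KG1a overlapped. ATG4B and TAX1BP1, whose promoters held CACGTG 0 times, had that order too. The share of all genes with that order was not counted. TSC2 was highest in HL60, and RRAGC was lowest in HL60.

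Of the ULK complex, which receives the signal from mTORC1 and starts the process, the members ULK1 and RB1CC1 reached 1 RPKM in every line. ATG13, a partner of ULK1 outside the members, was also expressed and is given with the closing observations. ULK1, the initiating kinase, ranged from 3.91 RPKM in MonoMac-1 to 9.73 in KG1a. Its relative ULK2 was scarce, at 0.802 RPKM for THP-1 and 0.673 for MonoMac-1, against 0.0184 for HL60 and 0.107 for KG1a. ULK2 was thus 0.118 and 0.172 times ULK1 in the MLL-AF9 lines and at most 0.0110 times ULK1 in the others, but at levels under 1 RPKM and on 8.29 fragment equivalents in HL60. RB1CC1 (FIP200), the scaffold of the complex, stood at 12.9 RPKM for THP-1 and 11.4 for MonoMac-1, against 4.10 for HL60 and 20.8 for KG1a, with HL60 lowest by more than 2-fold.

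The phosphatidylinositol 3-kinase complex, which makes the lipid signal on the new membrane, had spans over the lines from 1.23-fold (PIK3R4) to 2.74-fold (PIK3C3). BECN1, its regulatory subunit, was measured at 48.0 RPKM for THP-1 and 39.1 for MonoMac-1, against 48.5 for HL60 and 21.9 for KG1a, so that KG1a lay lowest. PIK3C3, the catalytic subunit, ran from 6.43 RPKM in HL60 to 17.6 in MonoMac-1, and PIK3R4, its scaffold, from 9.57 in THP-1 to 11.8 in HL60. PIK3C3 was therefore 1.07 and 1.76 times PIK3R4 in THP-1 and MonoMac-1, against 0.545 and 1.12 times in HL60 and KG1a. UVRAG, a partner of BECN1, was higher in both MLL-AF9 lines (11.1 and 14.1 RPKM) than in HL60 (9.03) and KG1a (9.21). AMBRA1, which links BECN1 to the ULK complex, was lower in both, at 8.84 RPKM for THP-1 and 9.13 for MonoMac-1, against 10.3 for HL60 and 12.6 for KG1a. The nearest values of the pairs were 1.201-fold apart for UVRAG and 1.13-fold for AMBRA1.

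Of the genes that feed lipid into the growing membrane or read its lipid signal, ATG2A, ATG2B and WIPI1 were highest in KG1a. ATG9A and WIPI2 were not, and 31.0% of all measured genes were highest in KG1a. ATG2A and ATG2B are bridges that carry lipid between membranes. ATG2A stood at 6.61 RPKM for THP-1 and 4.24 for MonoMac-1, against 4.98 for HL60 and 12.8 for KG1a. ATG2B stood at 3.69 and 3.84 RPKM in THP-1 and MonoMac-1, against 4.04 for HL60 and 13.1 for KG1a, which exceeded each other line more than 3-fold. ATG9A, the lipid scramblase of the seed vesicles, stood at 15.4 RPKM for THP-1 and 12.0 for MonoMac-1, against 5.46 for HL60 and 11.9 for KG1a, so that HL60 lay lowest by more than 2-fold.

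WIPI1 and WIPI2 read the lipid signal on the membrane. WIPI1 was the member that ran against RET with each step at least 1.2-fold. It stood at 1.40 RPKM for THP-1 and 3.04 for MonoMac-1, against 4.001 for HL60 and 6.44 for KG1a. None of its neighbouring counting intervals overlapped, though the THP-1 level rested on 93.5 fragment equivalents, and MIR635 lies within the gene. The difference between the pairs was -0.97 on the log2(RPKM + 1) scale (SE 0.53, limma adjusted p = 0.710), and it was -0.60 without THP-1. WIPI2 was level, at 18.0 RPKM for THP-1 and 20.04 for MonoMac-1, against 18.0 for HL60 and 19.1 for KG1a. Its neighbouring intervals overlapped throughout, and it was 12.9 times WIPI1 in THP-1 but 2.97 times in KG1a.

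Of the conjugation enzymes, ATG3 was highest in MonoMac-1 and ATG7 lowest in KG1a, each by at least 2-fold against every other line. ATG3, the enzyme that transfers ATG8 proteins to lipid, stood at 41.1 RPKM for THP-1 and 110.3 for MonoMac-1, against 54.3 for HL60 and 38.4 for KG1a. MonoMac-1 thus exceeded each other line at least 2.03-fold. ATG7, which activates both ubiquitin-like proteins, was measured at 13.6 RPKM for THP-1 and 26.2 for MonoMac-1, against 12.4 for HL60 and 3.42 for KG1a, with KG1a lowest by more than 3-fold. ATG10, which transfers ATG12, was by contrast highest in KG1a, at 3.35 RPKM for THP-1 and 4.34 for MonoMac-1, against 0.950 for HL60 and 6.81 for KG1a. The HL60 level of ATG10 was 14.0% of that in KG1a, and taking off the KG1a share left 0.767 RPKM.

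ATG5 and ATG12, which are joined to each other and act with ATG16L1 as the ligase, were both higher in the MLL-AF9 lines. ATG5 stood at 18.9 and 12.8 RPKM in THP-1 and MonoMac-1, against 6.22 for HL60 and 7.84 for KG1a, a difference of 1.05 on the log2(RPKM + 1) scale (SE 0.41, limma adjusted p = 0.582). ATG12 ran from 4.53 RPKM in KG1a to 8.56 in MonoMac-1. ATG16L1 stood at 8.27 RPKM for THP-1 and 6.63 for MonoMac-1, against 8.90 for HL60 and 3.82 for KG1a. Its relative ATG16L2, known to have little role in bulk autophagy, exceeded it in every line, by 2.45 times for THP-1 and 3.93 for MonoMac-1, against 2.09 for HL60 and 6.82 for KG1a.

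ATG4 proteases trim ATG8 proteins before conjugation and release them afterwards. ATG4B, the most active form, stood at 14.3 RPKM for THP-1 and 20.1 for MonoMac-1, against 17.6 for HL60 and 11.6 for KG1a, and led the group in the first 3 of these lines. ATG4D, which led in KG1a, was measured at 8.83 RPKM for THP-1 and 10.4 for MonoMac-1, against 8.61 for HL60 and 18.2 for KG1a. As a share of the summed ATG4 level, ATG4D made up 26.6% for THP-1 and 22.5% for MonoMac-1, against 21.1% for HL60 and 41.3% for KG1a. ATG4A (3.53 to 5.04 RPKM) and ATG4C (6.60 to 11.1 RPKM) varied less than 2-fold.

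In the ATG8 family, whose members coat the membrane and hold the cargo receptors, MAP1LC3A separated the pairs of lines. MAP1LC3A (chromosome 20, 33134692 to 33148149, hg19) was measured at 3.18 RPKM for THP-1 (2.64 to 3.79, 95% interval) and 7.26 for MonoMac-1 (6.71 to 7.84). In HL60 it stood at 0.0523 RPKM (0.0104 to 0.156) and in KG1a at 0.00212 (upper limit 0.0583), on 2.89 and 0.145 fragment equivalents, so no fold is given against them. The difference was 2.52 on the log2(RPKM + 1) scale (SE 0.56, limma adjusted p = 0.350), higher in both MLL-AF9 lines, and 5.30 with a pseudocount of 0.1. MAP1LC3B, the form most used as a marker of autophagosomes, stood at 12.8 RPKM for THP-1 and 11.4 for MonoMac-1, against 6.82 for HL60 and 23.1 for KG1a.

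GABARAP and GABARAPL2, not the LC3 genes, made up most of the family's RNA. GABARAP was measured at 47.8 RPKM for THP-1 and 76.4 for MonoMac-1, against 56.6 for HL60 and 50.4 for KG1a. GABARAPL2 reached 47.0 and 62.0 RPKM in THP-1 and MonoMac-1, against 28.5 for HL60 and 41.4 for KG1a, and the pairs did not overlap. GABARAPL1 was minor, at 1.39 RPKM for THP-1 and 3.34 for MonoMac-1, against 3.96 for HL60 and 3.58 for KG1a. MAP1LC3A and MAP1LC3B together contributed 14.2% of the summed level for THP-1 and 11.7% for MonoMac-1, against 7.16% for HL60 and 19.5% for KG1a. The near copies MAP1LC3B2 and GABARAPL3 lay at or below 0.131 RPKM in every line.

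**Figure D3:**
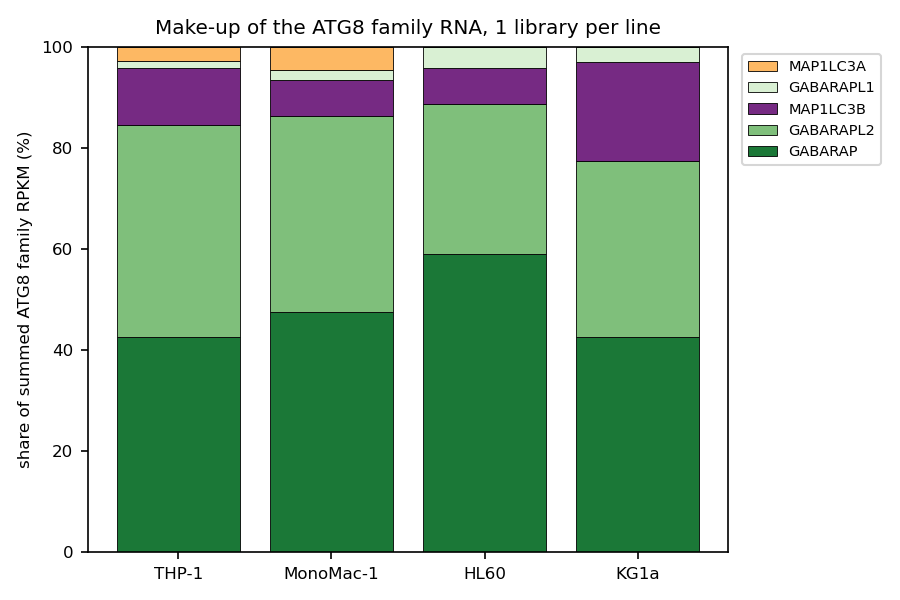
Share (%) of each ATG8 family gene in the family's summed RPKM in THP-1, MonoMac-1, HL60 and KG1a, 1 library per line. GABARAP and GABARAPL2 fill most of each bar, MAP1LC3B is widest in KG1a at 19.5%, and MAP1LC3A is visible only in THP-1 (2.83%) and MonoMac-1 (4.52%).

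Cargo receptors bind ubiquitin-tagged cargo and ATG8 proteins, and the shares of their RNA differed between lines. SQSTM1 and TAX1BP1 held the largest shares of the receptors' summed level in every line. SQSTM1 (p62) stood at 41.7 RPKM for THP-1 and 82.9 for MonoMac-1, against 67.3 for HL60 and 49.9 for KG1a. It overlaps MGAT4B by 565 bases (hg19), a gene at 23.3 to 60.8 RPKM, and strand handling is not given in the sources used here. TAX1BP1 was measured at 47.7 RPKM for THP-1 and 65.7 for MonoMac-1, against 57.3 for HL60 and 28.1 for KG1a. CALCOCO2 (NDP52), which also recognises invading bacteria, stood at 27.1 RPKM for THP-1 and 16.6 for MonoMac-1, against 52.7 for HL60 and 20.5 for KG1a, with HL60 highest. NBR1, a receptor for protein aggregates, ran from 9.61 RPKM in HL60 to 19.95 in THP-1.

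OPTN (optineurin), a receptor in the removal of mitochondria, was highest in KG1a by more than 2-fold. It stood at 2.46 RPKM for THP-1 and 0.191 for MonoMac-1, against 0.501 for HL60 and 19.2 for KG1a. The HL60 value was 2.61% of that in KG1a, the share at which genes abundant in KG1a lay there, and 0 remained after that share was taken off. THP-1 exceeded MonoMac-1 12.9-fold. OPTN made up 14.4% of the receptors' summed level in KG1a and at most 1.77% in the other lines.

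Of the mTORC1 subunits, the kinase and its scaffold were held at similar levels and the accessory subunits varied. MTOR, the kinase, ranged from 18.5 RPKM in THP-1 to 21.05 in KG1a, and RPTOR, the scaffold that recruits substrates, from 10.6 in both THP-1 and MonoMac-1 to 14.4 in HL60. Their ratio lay between 1.34 and 1.82 in all 4 lines. MLST8, a small subunit shared with mTORC2, was measured at 19.6 RPKM for THP-1 and 24.2 for MonoMac-1, against 71.6 for HL60 and 30.2 for KG1a. HL60 exceeded each other line more than 2-fold, and MLST8 was 3.71 times MTOR in HL60 and 1.06 to 1.43 times in the others. The pairs did not overlap, with a difference of -1.06 on the log2(RPKM + 1) scale (SE 0.51, limma adjusted p = 0.663). It was -0.45 without HL60 and -1.67 without KG1a.

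The inhibitory subunits of mTORC1 went separate ways. DEPTOR stood at 9.55 RPKM for THP-1 and 2.72 for MonoMac-1, against 3.54 for HL60 and 1.10 for KG1a, so that THP-1 exceeded each other line at least 2.70-fold and KG1a lay lowest by more than 2-fold. AKT1S1 (PRAS40) ran from 12.3 RPKM in THP-1 to 22.4 in KG1a.

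RHEB, the small GTPase that switches mTORC1 on, stood 2-fold apart in THP-1 and MonoMac-1, while its brake varied less. RHEB was measured at 37.5 RPKM for THP-1 and 17.9 for MonoMac-1, against 27.6 for HL60 and 32.4 for KG1a, a 2.09-fold excess of THP-1 over MonoMac-1. TSC1 and TSC2 form the complex that turns RHEB off. TSC1 ran from 6.55 RPKM in MonoMac-1 to 10.9 in KG1a, and TSC2 from 11.6 in MonoMac-1 to 15.5 in HL60. Both were lower in THP-1 and MonoMac-1 than in HL60 and KG1a, but the nearest values were only 1.02-fold apart for TSC1 and 1.07-fold for TSC2.

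Rag GTPases bring mTORC1 to the lysosome when amino acids are present, as pairs of RRAGA or RRAGB with RRAGC or RRAGD. RRAGA stood at 32.0 RPKM for THP-1 and 25.4 for MonoMac-1, against 6.39 for HL60 and 15.8 for KG1a, and none of the intervals overlapped. Its difference was 1.41 on the log2(RPKM + 1) scale (SE 0.51, limma adjusted p = 0.562), and it was 0.82 without HL60. RRAGC ran from 9.96 RPKM in HL60 to 14.3 in MonoMac-1. RRAGD was measured at 8.13 RPKM for THP-1 and 3.93 for MonoMac-1, against 9.32 for HL60 and 0.902 for KG1a. RRAGD was thus 0.583 times RRAGC for THP-1 and 0.274 times for MonoMac-1, against 0.936 times for HL60 and 0.0710 times for KG1a.

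**Figure D4:**
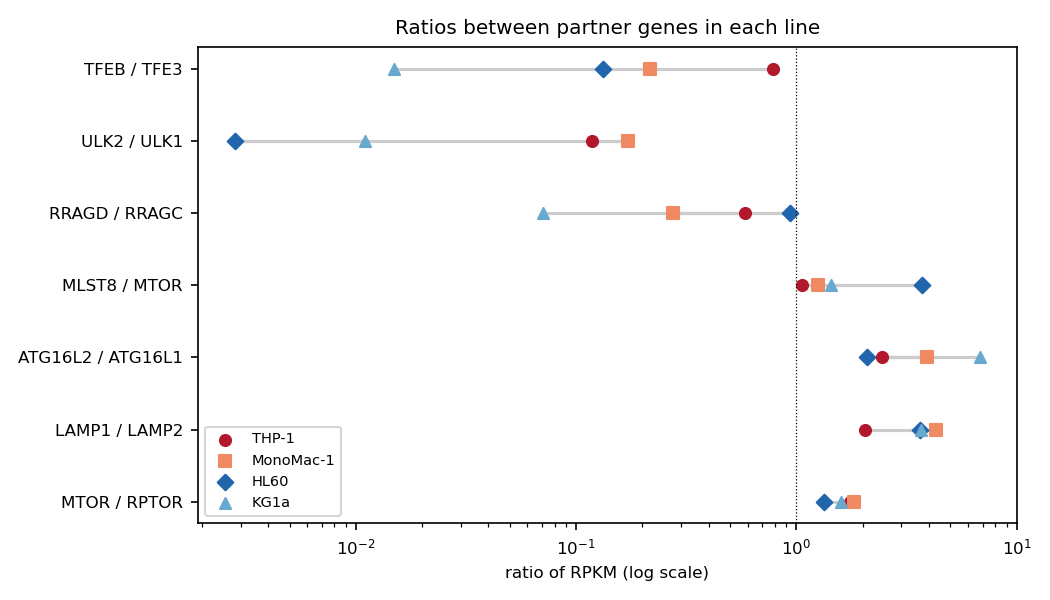
Ratio of RPKM (log scale) between partner or paralogous genes in THP-1, MonoMac-1, HL60 and KG1a, 1 library per line, with a dotted line where both genes are equal. TFEB over TFE3, ULK2 over ULK1 and RRAGD over RRAGC spread widely over the lines, while MTOR over RPTOR stays between 1.34 and 1.82.

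THP-1 and MonoMac-1, which share the fusion and the lineage, differed from each other in 10 members by at least 2-fold. DEPTOR, OPTN, RHEB and RRAGD were higher in THP-1 (4 of 48, and 13.1% of all measured genes). ATG3, GABARAPL1, LAMP1, MAP1LC3A, TFE3 and WIPI1 were lower in THP-1 (6 of 48, and 14.9%). RET itself was 3.27 times higher in THP-1, and OPTN and DEPTOR exceeded that factor. At 4-fold OPTN alone was higher in THP-1 (6.7%) and 0 were lower (5.9%). With 1 added to each RPKM the 2-fold lower count became 3.

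Between HL60 and KG1a, 10 members were at least 2-fold higher in HL60 (19.1% of all measured genes) and 9 lower (24.0%). The higher genes were ATG16L1, ATG7, BECN1, CALCOCO2, DEPTOR, MLST8, RRAGD, TAX1BP1, TFEB and MAP1LC3A, the last at under 3 fragment equivalents in both lines and so not a detectable difference. RRAGD stood 10.3-fold and TFEB 4.94-fold higher in HL60. These and MAP1LC3A were the 3 past 4-fold (10.1%). The lower genes were ATG10, ATG2A, ATG2B, ATG4D, ATG9A, MAP1LC3B, OPTN, RB1CC1 and RRAGA, of which RB1CC1 stood in HL60 at 19.7% and RRAGA at 40.5% of the KG1a level. By 4-fold 3 were lower, ATG10, OPTN and RB1CC1 (12.9%).

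THP-1 held the highest level of 8 members (21.0% of all measured genes), MonoMac-1 of 16 (24.9%), HL60 of 10 (23.1%) and KG1a of 14 (31.0%). The lowest level lay in THP-1 for 14 members (24.0%), in MonoMac-1 for 7 (19.7%), in HL60 for 14 (26.7%) and in KG1a for 13 (29.7%). KG1a was lowest by at least 2-fold in ATG7, DEPTOR, MAP1LC3A, RRAGD and TFEB (5 of 48, and 12.0% of all measured genes), and highest by that margin in ATG2B and OPTN (2 of 48, and 9.93%). MAP1LC3A is counted there although its HL60 and KG1a levels rest on 2.89 and 0.145 fragment equivalents, with overlapping intervals. HL60 was lowest by that margin in ATG10, ATG9A, RB1CC1 and RRAGA (4 of 48, and 9.31%) and highest in MLST8 (1 of 48, and 2.99%). MonoMac-1 was highest in ATG3 and MAP1LC3A (2 of 48, and 4.99%) and lowest in OPTN (1 of 48, and 4.82%). THP-1 was highest in DEPTOR (1 of 48, and 4.82%) and lowest in GABARAPL1 and WIPI1 (2 of 48, and 4.98%). The OPTN call of MonoMac-1 holds only for the HL60 level as deposited, of which 0 remained after the KG1a share was taken off. Each of these 2-fold shares was below that of all measured genes.

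Outside the 49 genes, most lysosomal enzymes stood higher in THP-1 and MonoMac-1. Of 26 measured lysosomal hydrolases, the enzymes that digest delivered cargo, 16 were higher in THP-1 and MonoMac-1 alike by any margin (22.1% of all measured genes) and 0 lower (19.6%), with 9 at least 2-fold higher (7.38%). The median difference was 1.18 on the log2(RPKM + 1) scale, against 0.15 for the autophagy and mTORC1 genes and 0.02 for all measured genes. By 4-fold (4.35% of all measured genes) 1 was higher, CTSZ, a cathepsin, with 129 RPKM for THP-1 and 277 for MonoMac-1, against 22.0 for HL60 and 0.0815 for KG1a. Of 15 lysosomal membrane proteins and channels, 8 were higher and 0 lower by any margin, with a median of 0.71. MCOLN2, a cation channel of endolysosomes, stood at 35.4 RPKM for THP-1 and 25.0 for MonoMac-1, against 0.581 for HL60, and was listed at 0 in KG1a. Of 18 subunits of the V-ATPase, the lysosomal proton pump, 9 were higher and 1 lower, with a median of 0.52, and ATP6V1B2, named after its values were seen, alone was 2-fold higher. Monocytes are rich in lysosomes. The 5 monocyte markers LYZ, CD68, IRF8, CD14 and CSF1R were all higher in THP-1 and MonoMac-1 too, so lineage and fusion cannot be told apart here.

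The remaining lists are read by any margin against the 22.1% of all measured genes that were higher and the 19.6% that were lower. Ragulator, which anchors Rag GTPases to the lysosome, was listed with the Rag GTPase RRAGB, and 4 of these 6 genes were higher and 0 lower, with a median of 0.38. Fusion and HOPS genes had 5 of 14 higher and 1 lower. GATOR, KICSTOR and folliculin genes, which pass amino acid signals to the Rag GTPases, had 1 of 17 higher and 4 lower, and mTORC2 subunits with mTORC1 outputs 0 of 10 higher and 6 lower, with a median of -0.33. In that last list PRR5, a subunit of mTORC2 named after its values were seen, was 2-fold lower, at 1.30 RPKM for THP-1 and 1.28 for MonoMac-1, against 3.41 for HL60 and 11.8 for KG1a. Further initiation and membrane genes had 0 of 11 higher and 2 lower. Other cargo receptors, listed with PINK1 and PARK2, which act in the removal of mitochondria, had 2 of 14 higher and 3 lower. Relatives and regulators of TFEB had 2 of 4 higher and 0 lower. Among sestrins, AMPK and AKT genes 4 of 18 were higher and 1 lower. SESN3, which restrains mTORC1, stood at 42.5 RPKM for THP-1 and 21.5 for MonoMac-1, against 3.82 for HL60 and 1.72 for KG1a.

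**Figure D5:**
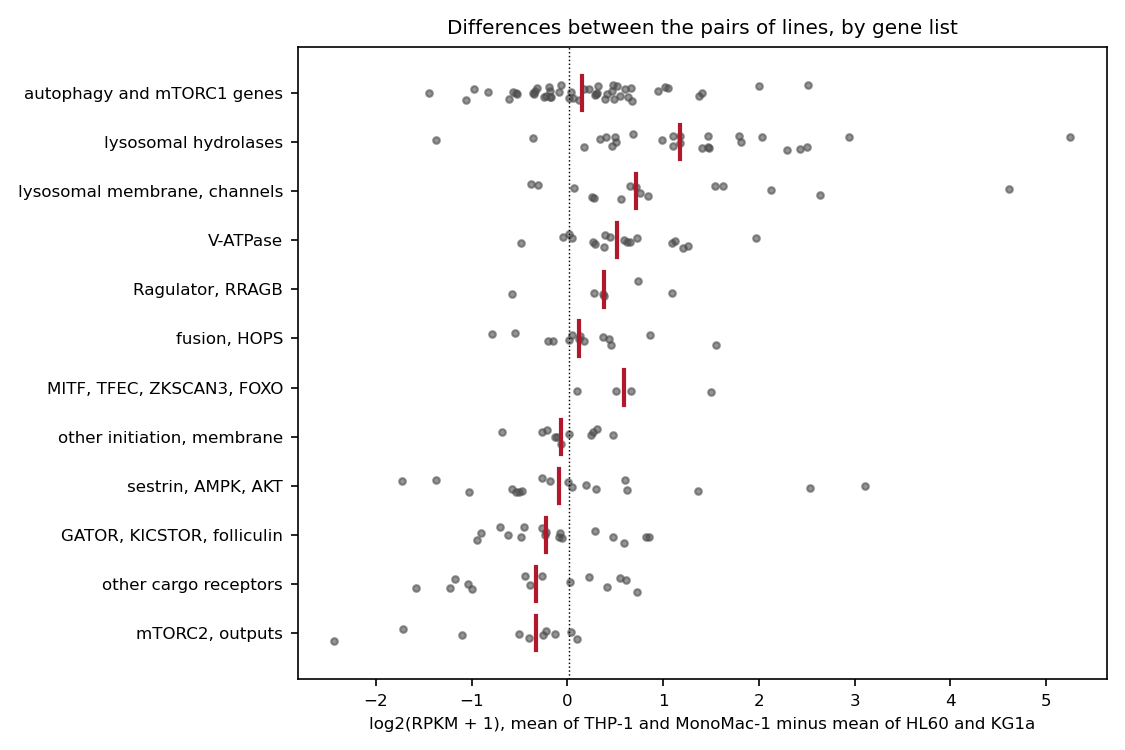
Difference of log2(RPKM + 1), the mean of THP-1 and MonoMac-1 minus that of HL60 and KG1a, for each measured gene (points) and the median (red bar) of each list, with a dotted line at the median of all measured genes. The autophagy and mTORC1 genes centre near that line at 0.15, while the lysosomal hydrolases centre at 1.18. The row of other cargo receptors includes PINK1 and PARK2, which are not receptors.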

How the data were processed

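RNA-seq of 4 leukemia lines, 1 library each, was re-analysed from the deposited tables. The authors deposited 1 RPKM value per gene, scaled to gene length and library size. The tables also hold a whole-number coverage signal per gene, deposited without a stated unit and read from its values as sequenced bases on the gene. CASAVA 1.8.2 and build hg19 are named in the submitters' processing notes, and no aligner, annotation or strand handling is given there. Each table had 21893 rows, and of 28 repeated symbols the row with the highest mean was kept.

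The lines known to carry MLL-AF9 were set against the others by fold of RPKM and, on log2(RPKM + 1), by limma 3.58.1 in R 4.3.3 with Benjamini-Hochberg adjustment over the 12976 genes that reached 1 RPKM. Limma was tested on simulated data. Its p-values measure the spread between lines, and nothing measures the spread between cultures. Counting intervals (95%, exact Poisson) divide the coverage by an assumed 200 bases per fragment and cover counting error only. Levels of 3 fragments or fewer were taken as the floor.

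The 49 members, the 12 pathway lists and the markers were chosen with earlier results of these data known. Values in all 4 lines are given for members past 2-fold in any comparison, those in the order of RET or its reverse, and the most abundant of each role. Outside the members, the genes named are those at least 4-fold apart between the pairs, at most 4 per list, with PRR5, ATP6V1B2 and the relatives among the closing observations added after their values were seen. Of the genes that met the rule, 1 is not reported here. The alternatives were median-of-ratios scaling, other filters, pseudocounts and folds, each line left out, and the KG1a share taken off HL60. Older symbols were matched through RefSeq synonyms, and Python 3.11.15 with pandas 2.3.3 was used.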

Additional observations from a re-analysis of the deposited data

How the results depend on the processing

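At 4-fold in place of 2-fold, 1 member was higher in THP-1 and MonoMac-1 than in HL60 and KG1a, 1 was higher and 0 were lower in THP-1 than in MonoMac-1, and 3 were higher and 3 lower in HL60 than in KG1a. With 1 added to each RPKM, 3 members were 2-fold lower in THP-1 than in MonoMac-1. With neighbours at least 1.2-fold apart, 1 member had the order of RET and 1 its reverse, and the shares of all genes were not counted for this. With each line left out in turn, the 2-fold higher count of the MLL-AF9 lines ran from 4 to 7 and the lower count from 1 to 3. Fewer lines must then stand apart, and the shares of all genes were not counted for these. The median log2 difference ran from -0.022 to 0.23, and was 0.02 without HL60. Limma called 0 members under every alternative run. The single genes recomputed were those whose pairs did not overlap, so their direction could not turn when a line was left out, and this says nothing about stability. Each line had 1 library, so differences between lines include culture, library and sequencing. The coverage unit was inferred, which sets the width of the intervals, and MAP1LC3A in HL60 and KG1a lies at or under the floor. No paired analysis was possible because each line had 1 library and the replicate numbers tie no samples together.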

Other observations

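Relatives of the members, picked after their values were seen, had their own patterns. MITF, the relative of TFEB best known from pigment cells, stood at 0.642 RPKM for THP-1 and 6.45 for MonoMac-1, against 0.520 for HL60, and was listed at 0 in KG1a. TFEC, the remaining relative, ranged from 8.01 RPKM in HL60 to 14.9 in THP-1. RRAGB, which can take the place of RRAGA, was measured at 3.73 RPKM for THP-1 and 10.5 for MonoMac-1, against 3.01 for HL60 and 8.28 for KG1a. ATG13, a partner of ULK1, ran from 14.5 RPKM in KG1a to 30.03 in MonoMac-1. RHEBL1, a relative of RHEB, was lowest in THP-1, at 0.301 RPKM, and reached 1.85 in MonoMac-1, against 3.18 for HL60 and 3.37 for KG1a.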
